A study of Mus musculus with 32 samples.

Results

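Whole kidneys of mice that lack miR-155 were compared 24 h after cisplatin with kidneys of saline-injected mice of the same genotype. The 4 arrays titled miR-155-/- at 24 h were set against the 4 titled miR-155-/- at 0 h, 8 of the 32 arrays of the study, chosen by their titles. All mice were male and 12 to 16 weeks old. The miR-155-/- mice carried the strain name B6.Cg-Mir155tm1.1Rsky/J, originally from The Jackson Laboratory, and the wild type mice set beside them were C57BL/6 from Charles River, matched for age and weight. The treated group had received 1 intraperitoneal injection of cisplatin at 20 mg/kg, and the control group, counted as 0 h, an injection of saline. Both groups carry the deletion of miR-155, so a comparison between them shows the response to the drug in that genotype and not the loss of miR-155. Each array held RNA of 1 independent animal, 1-colour labelled, from a homogenate of the whole organ.

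Cisplatin is a platinum drug that joins neighbouring bases of DNA and so stops replication and transcription. The proximal tubule takes it up through organic cation carriers, and damaged tubule cells activate p53, lose their transport proteins and release signals that draw in leukocytes. miR-155 is a microRNA of activated immune cells that represses messages by pairing of its seed, its bases 2 to 8, with their 3′ ends.

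The 2 mature strands removed by the deletion are shown 5′ to 3′ with the seed in capitals (RefSeq, GRCm38.p6, plus strand, chr16:84714143-84714165 and chr16:84714182-84714202). The level of miR-155 itself was not analysed here.
miR-155-5p: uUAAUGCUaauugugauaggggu
miR-155-3p: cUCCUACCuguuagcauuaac

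Values below are log2 signals relative to the 75th percentile of the array, so that 0 marks that percentile and 1 unit is a doubling. They compare arrays for 1 gene and do not compare genes. The 4 values of a group stand in the order of replicates 1 to 4, a ± is the standard error of the difference between the groups from the fit (4 and 4 arrays), and a gene was called to rise or fall at an adjusted p under 0.05 in limma (Benjamini-Hochberg over all genes tested). On the 32 arrays 67.9% to 81.8% of probes were well above background. The 4 saline arrays lay close together, each with a mean correlation of 0.990 to 0.992 with the rest of its group. At 24 h replicate 3 stood apart: its mean correlation with its group was 0.968 against 0.981 to 0.984 for the other 3, and the array most like it was replicate 3 at 48 h (r = 0.982). The arrays most like replicates 1, 2 and 4 were wild type arrays at 24 h. Results are therefore also given without replicate 3. Arrays of both groups shared slide 4 (saline replicate 4 and 24 h replicate 3) and slide 6 (saline replicate 1 and 24 h replicate 4). The sign of the difference held within the slide for 97.6% and 99.9% of the called genes with a value there. These arrays are among those that gave the calls, so this agreement was largely set in advance and is no test of the slide.

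In miR-155-/- kidney 49.1% of the 23743 genes tested were called at 24 h, 6325 higher (26.6%) and 5338 lower (22.5%), and 18.7% were called and changed at least 2-fold. Without replicate 3 there were 10590 calls (44.6%), 5720 higher (24.1%) and 4870 lower (20.5%). All 11663 genes called with it kept the sign of their difference. The fits with and without it share every other array, so the kept sign is no independent check. Of the genes called with replicate 3, 5335 of those that rose and 4364 of those that fell were called without it too. The 4 values of one group did not overlap those of the other for 40.1% of genes, 21.9% higher and 18.2% lower at 24 h. With the normexp background correction, which shrinks differences of dim probes, 4183 genes were higher and 2946 lower. The median difference over all genes was -0.01, which the medians of the gene groups below can be read against, as their counts can against 26.6% and 22.5% (24.1% and 20.5% without replicate 3). Since whole tissue was measured, fewer cells of a type and less RNA per cell cannot be told apart.

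**Figure D1:**
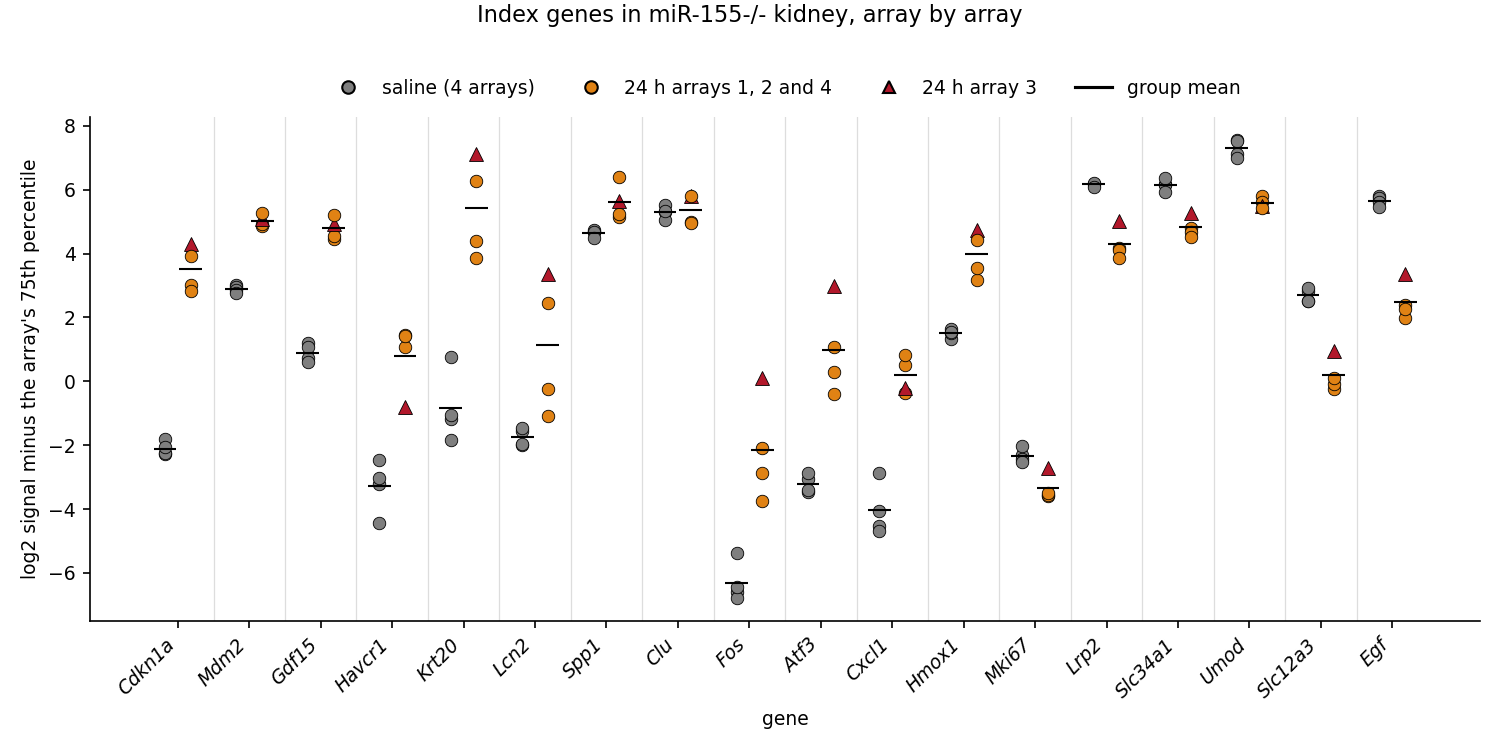
Log2 signal relative to the array's 75th percentile (vertical axis) of 18 genes of injury, stress and tubule transport (horizontal axis) in each miR-155-/- array, saline and 24 h, 4 arrays per group, with 24 h replicate 3 (array 3) drawn as a triangle and bars at the group means. Cdkn1a, Mdm2, Gdf15 and Hmox1 lie higher and Lrp2, Slc34a1, Umod, Slc12a3 and Egf lower in every 24 h array than in every saline array, whereas the values of Clu overlap.

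Targets of p53 rose almost throughout. Of the 41 measured, 34 rose and 1 fell, with a median difference of 1.79 (35 and 1 without replicate 3, median 1.89). Cdkn1a, the p21 inhibitor that halts the cell cycle, read -2.29, -2.26, -1.82 and -2.07 in saline and 3.01, 2.81, 4.30 and 3.94 at 24 h. It rose 49.3-fold (log2 5.62 ± 0.29, adjusted p = 4.22e-14). Phlda3, a membrane protein that restrains Akt, went from 0.29 to 0.78 in the saline arrays to 4.96 to 5.57 at 24 h, a 23.4-fold rise (4.55 ± 0.16). Mdm2, the ligase that returns p53 to degradation, lay between 2.77 and 3.02 in saline and between 4.85 and 5.28 at 24 h, 4.38-fold higher. Gdf15, a stress hormone, rose 14.9-fold (3.90 ± 0.21). Zfp365, Gtse1 and Psrc1, further p53 targets, rose 30.3-fold, 47.9-fold and 29.6-fold. In each of these 7 genes every treated array was above every saline array, replicate 3 included. The 1 target that fell, named for that reason, was Sesn1, a regulator of growth signalling, with -0.27, -0.08, -0.39 and -0.41 at 24 h against 0.09 to 0.35 in saline (-0.48 ± 0.14). The other 6 targets, Xpc, Rrm2b, Ddb2, Ppm1d, Dcxr and Tigar, had differences between -0.18 (Rrm2b) and 0.24 (Ppm1d) and were not called, Ppm1d being called without replicate 3 (0.41).

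Genes of the cell death machinery rose more often than they fell. Of 15 BCL2 family genes 8 rose and 2 fell, with a median of 0.70 (0.015 with the normexp correction). The 3 largest rises were in BH3-only genes, which start apoptosis. Bbc3, also called Puma, read -0.71, -0.93, -0.80 and -0.94 in saline and 2.54, 2.77, 1.58 and 2.90 at 24 h, a 9.80-fold rise (3.29 ± 0.19). Pmaip1, called Noxa, rose 7.61-fold (2.93 ± 0.38) and Bcl2l11, called Bim, 7.52-fold (2.91 ± 0.28). The pore formers Bax and Bak1 rose 3.21-fold and 3.1-fold, and the protective Mcl1 1.63-fold. For Bbc3 and Bax replicate 3 was the lowest treated array, and for Pmaip1 it was the highest. Of 25 death receptor, caspase and necroptosis genes 14 rose and 1 fell (median 0.38). Tnfrsf10b, the TRAIL receptor, rose 13.1-fold, from between -2.87 and -2.42 to between 0.74 and 1.53. Its ligand Tnfsf10 fell 3.80-fold, on 3 saline arrays with a value (2.04, 1.78 and 1.86) against 0.14, 0.28, -0.39 and -0.16. Mlkl, the pore protein of necroptosis, rose 4.87-fold (2.28 ± 0.35), and Apaf1, the scaffold on which caspases assemble, 2.64-fold.

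Genes of DNA repair moved in both directions. Among 30 excision repair and translesion genes 16 rose and 3 fell (median 0.30), and among 30 genes of crosslink and double-strand break repair 7 rose and 7 fell (median -0.08), shares near those of all genes. Polk, a polymerase that copies past damaged bases, rose 2.76-fold (1.46 ± 0.14), and the base excision nuclease Apex1 2.57-fold. Ercc5, the nuclease that cuts on the 3′ side of a lesion in nucleotide excision repair, rose 2.98-fold, from between -1.93 and -1.43 to -0.51, -0.07, 0.25 and -0.01. On the other side Prkdc, the kinase of end joining, fell 3.08-fold, and Fancc and Fancl, subunits of the Fanconi complex of crosslink repair, 3.77-fold and 2.13-fold. For Fancc the saline values of -2.09 to -1.87 and the treated values of -4.10 to -3.56 stood far apart. Fanci also fell (-1.74 ± 0.31), but was well above background on 2 of the treated arrays and was not called with the normexp correction. Rad52 rose 1.91-fold and Fancf by 0.58 on the log2 scale.

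Most replication genes rose, and no mitosis gene did. Of 23 genes of DNA replication 15 rose and 4 fell (median 0.72), whereas of 16 mitosis genes 0 rose and 5 fell (median -0.25). Cdt1, which loads the replicative helicase, read 0.06, 0.29, 0.25 and 0.50 in saline and 2.08, 2.44, 3.60 and 3.02 at 24 h, a 5.71-fold rise (2.51 ± 0.37). Rrm2, the small subunit of ribonucleotide reductase, rose 3.52-fold, Pcna, the sliding clamp, 2.48-fold and the helicase subunit Mcm7 1.95-fold. Pola1, the catalytic subunit of the priming polymerase, went the other way and fell 5.35-fold, from between -2.47 and -2.32 to between -5.09 and -4.50. Cenpe, a motor of the kinetochore, fell 4.20-fold (-2.07 ± 0.19), from between -0.85 and -0.08 to between -2.97 and -2.31. Mki67, the proliferation marker, fell 2.02-fold, and its highest treated value of -2.72 was that of replicate 3. Kif11, Bub1b, Mki67 and Ccna2 also fell but were not called with the normexp correction, Kif11 being well above background on 2 saline and 0 treated arrays. Ccna2, with an adjusted p of 0.0364, was lost too without replicate 3 and under 7 other alternatives.

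Immediate early genes, which cells switch on within minutes of a signal, rose almost without exception. Of 20 genes of the AP-1 family and its companions 19 rose, all but Ier3 (0.53 ± 0.36), with a median of 2.42 (19 and 2.03 without replicate 3). Fosl1, an AP-1 subunit, read -7.36, -6.59, -4.74 and -6.50 in saline and -0.94, -0.75, 2.41 and 0.90 at 24 h, a 104-fold rise (6.70 ± 0.71). Fos rose 17.8-fold, from -6.62, -6.78, -5.39 and -6.44 to -3.74, -2.88, 0.11 and -2.08. Atf3, a stress-induced partner of Jun, rose 18.3-fold (4.20 ± 0.47) and Egr1 21.4-fold (4.42 ± 0.52). Junb, Myc and Maff rose 7.63-fold, 6.69-fold and 15.2-fold. For Fosl1, Fos, Atf3, Egr1, Junb and Maff replicate 3 was the highest treated array and saline replicate 3 the highest saline array. Even so, each lowest treated value exceeded each highest saline value. Without 24 h replicate 3 the differences were 6.03 for Fosl1, 3.40 for Fos and 3.53 for Atf3, all called.

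Several phosphatases that shut off MAP kinases rose. Of 15 feedback genes 7 rose, each a dual-specificity phosphatase, and 1 fell, the EGF receptor inhibitor Errfi1 (-0.82, named for that reason). Dusp4, Dusp8 and Dusp6 rose 6.46-fold, 5.32-fold and 2.44-fold. Among 10 genes of the EGF receptor family 3 rose and 2 fell. Egf itself, made in the thick ascending limb and distal convoluted tubule, fell 8.89-fold, from 5.81, 5.73, 5.61 and 5.45 to 1.98, 2.40, 3.35 and 2.25 (-3.15 ± 0.28). The inducible ligand Hbegf lay at or below the 75th percentile in saline and read 0.32, 0.96, 3.93 and 1.74 at 24 h, a 3.76-fold rise (1.91 ± 0.48, and 1.18 without replicate 3). Areg was not well above background on any saline array and was on all 4 treated ones, at least 7.46-fold higher, though it was not called with the normexp correction. The receptor Erbb2 fell 1.81-fold. Nrg1, a ligand of its partner receptors, showed 2.12, 1.89 and 1.89 in replicates 1, 2 and 4 and -0.77 in replicate 3. Its difference was 1.12 ± 0.36 with that array and 1.81 without it, and within slide 4 it was -1.14. The call of Nrg1 was lost with the compared groups alone and without 24 h replicate 1 or 4.

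Markers of tubular injury rose. Of 27 injury markers 20 rose and 0 fell (median 1.40, and 18 of 27 with the same median without replicate 3). Havcr1, the phosphatidylserine receptor Kim-1 that injured proximal cells display, read -3.22, -3.04, -4.44 and -2.46 in saline and 1.46, 1.09, -0.82 and 1.41 at 24 h. It rose 16.9-fold (4.08 ± 0.64), and replicate 3 was its lowest treated array. Krt20, a keratin of injured tubules and urothelium, showed the opposite order, with 4.41, 3.85, 7.11 and 6.28 against -1.85 to 0.77 in saline, and rose 75.8-fold (6.24 ± 0.66). Lcn2, the iron-carrier protein NGAL, read -1.08, -0.23, 3.36 and 2.44 against -2.0, -1.97, -1.54 and -1.48. Its 7.32-fold rise (2.87 ± 0.68, adjusted p = 0.000970) rested on replicates 3 and 4, which lay far above saline while replicates 1 and 2 lay near it, and the log2 difference was 2.13 without replicate 3 and 3.61 without replicate 1. Tnfrsf12a, the receptor of the cytokine TWEAK, rose 18.4-fold with all 4 arrays between 4.57 and 5.44. Spp1, osteopontin, rose 1.94-fold (0.96 ± 0.23), with 5.14, 5.24, 5.64 and 6.39 against 4.49 to 4.73. Clu, clusterin, was not called (0.07 ± 0.21), its treated values of 4.98, 4.94, 5.80 and 5.80 lying around the saline values of 5.05 to 5.54. Sox9, a transcription factor of tubule repair, and its relative Sox4 were the 2 of 21 nephron transcription factors that rose, at 5.05-fold (not called with the normexp correction) and 2.09-fold.

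Genes of the cornified envelope, the cross-linked protein coat of skin and other stratified epithelia, rose in the kidney. Of 15 measured 11 rose and 0 fell, with a median of 3.04 (11 and 2.71 without replicate 3, and a median of 0.588 with the normexp correction). Members not well above background in saline were tested only because some other group had its 4 arrays well above it. The count and the median of this list were therefore in part set by that filter. Lce1d read -6.41, -5.10, -6.78 and -6.68 in saline and -1.17, -1.60, -1.25 and -0.27 at 24 h, 36.0-fold higher (5.17 ± 0.84). Sprr2g read -4.74, -4.91, -3.73 and -4.50 in saline and -2.34, -1.74, 2.43 and 1.31 at 24 h, 20.9-fold higher (4.39 ± 0.73). Sprr2f, well above background on 3 saline arrays, rose 30.7-fold (4.94), with 1.80 and 0.49 in replicates 3 and 4 against -4.60 and -3.83 in replicates 1 and 2. Leaving out replicate 1, 2, 3 or 4 at 24 h moved the difference of Sprr2f to 5.96, 5.70, 3.83 and 4.27, and leaving out replicate 1 or 3 moved that of Sprr2g to 5.14 and 3.55. Sprr1a rose 4.61-fold. The keratins Krt76, Krt12 and Krt5 rose as well, Krt76 from not well above background in saline to at least 22.8-fold higher and Krt12 on 1 saline array well above background. The Lce and Sprr2 genes are families of near-identical copies, so a probe may also read a sister gene. Sprr1b, Sprr2e, Sprr2h and Lce1f, not well above background on any saline array, rose at least 2.21-fold, 1.95-fold, 4.04-fold and 4.38-fold. Ivl, well above background on 2 saline arrays, rose too. These 5 were not called with the normexp correction, nor was Sprr2e with array weights. The difference of Krt12 was 6.31, and 5.08 without 24 h replicate 3, 7.22 without 24 h replicate 2 and 7.06 without saline replicate 3. That of Ivl went from 3.04 to 2.43 without saline replicate 2.

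Upstream of these genes a match to a loose form of the AP-1 site was common. The letters TGANTCA, with any base at N, were sought on both strands in the 250 bases before the start of each gene. They were found in 9 of the 14 cornified envelope genes with a promoter entry (64.3%) against 7.82% of 27025 promoters, and 7 of the 9 rose. Among the protease genes described below 5 of 11 promoters held it (45.5%), of which 3 genes rose and 1 fell. These were 2 of 14 pairs of a motif and a gene group looked at, chosen with the values known, and 2 others had no match, 1 of them the p53 element in 32 promoters of p53 targets. Motifs of other groups were also more common there than in all promoters. The NF-kB site was in 60.0% of promoters of NF-kB feedback genes against 4.46%. The E-box, CACGTG, was in 33.3% of clock gene promoters against 6.86%. A match is a description, not a bound site. With the middle base free, TGAATCA of Sprr1b counts as a match, and matches in copies of 1 family such as Sprr2 are not independent. Promoter stretches of 6 genes with the site in capitals are given because they show the shared letters beside genes that rose together, the last 2 being protease system genes that rose (RefSeq, GRCm38.p6, each read along the gene's strand). They lie at chr3:92364965-92365021 (plus), chr3:92385462-92385518 (plus), chr3:92438859-92438915 (minus), chr3:92573820-92573876 (minus), chr7:24462389-24462445 (plus) and chr9:7502254-7502310 (plus).
Sprr2f: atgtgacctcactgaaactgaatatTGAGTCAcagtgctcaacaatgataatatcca
Sprr2h: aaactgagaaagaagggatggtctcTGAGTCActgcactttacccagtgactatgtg
Sprr1b: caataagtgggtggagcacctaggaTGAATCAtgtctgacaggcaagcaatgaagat
Ivl: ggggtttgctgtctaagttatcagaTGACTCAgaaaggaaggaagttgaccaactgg
Plaur: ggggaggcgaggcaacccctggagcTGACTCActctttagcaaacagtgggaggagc
Mmp10: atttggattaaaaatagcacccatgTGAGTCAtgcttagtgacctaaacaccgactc

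Genes of the plasminogen system and metalloproteinases moved in both directions, 6 up and 6 down of 16. Without replicate 3 the counts were 4 and 4, shares near those of all genes. Plaur, the urokinase receptor, read -1.22, -1.31, -0.70 and -1.86 in saline and 0.84, 1.01, 4.29 and 2.19 at 24 h, a 10.2-fold rise (3.36 ± 0.57, and 2.62 without replicate 3). Timp3, a metalloproteinase inhibitor held in the matrix, fell 2.83-fold, from between 5.37 and 5.75 to between 3.76 and 4.40. Mmp10, well above background on 1 saline array, rose 8.10-fold (3.02, and 2.08 without replicate 3) and was not called with the normexp correction. Timp1, named because its call rests on 1 array, read -3.41, -3.53, 1.07 and -1.97 at 24 h, with a difference of 2.44 ± 0.84 with replicate 3 and of 1.43 without it (adjusted p = 0.131). It was lost too with the compared groups alone, with array weights and without saline replicate 2.

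Feedback genes of NF-kB, the main transcription factor of inflammation, rose. Of 12 measured 10 rose and 0 fell (median 1.14). Nfkb2, a subunit of the alternative pathway, read -1.05, -1.13, -1.27 and -1.18 in saline and 0.42, 0.84, 0.84 and 1.17 at 24 h, a 3.95-fold rise (1.98 ± 0.19). Its partner Relb rose 3.29-fold, the inhibitor Tnfaip3 2.86-fold and Nfkbiz 3.41-fold. Of 13 STAT3 targets 6 rose and 1 fell (median 0.53, but 0.198 with array weights and 0.809 and 0.825 without 24 h replicate 1 or 2). Socs3, the feedback inhibitor of cytokine receptors, rose 5.32-fold (2.41 ± 0.51, and 1.69 without replicate 3) on values of 0.10, 0.59, 3.64 and 1.59 against -1.32 to -0.42. Stat3 itself rose 2.68-fold.

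Among 27 cytokines and chemokines 10 rose and 3 fell (median 0.42, but 0.198 without replicate 3 and 0.041 with the normexp correction). Cxcl1, which attracts neutrophils, read -4.54, -4.70, -2.88 and -4.06 in saline and -0.38, 0.50, -0.20 and 0.82 at 24 h, an 18.8-fold rise (4.23 ± 0.36, adjusted p = 4.92e-10). Cxcl10, which attracts T cells, rose 10.2-fold, with 1.47, 2.06, -0.09 and 1.76, and Lif, an interleukin-6 relative, 8.82-fold. Cxcl12, the chemokine that holds leukocytes in tissue, fell 4.54-fold. Il6 was not called: it reached -1.95 on replicate 3 and lay between -10.10 and -8.62 on the other treated and saline arrays. Of 20 interferon-stimulated genes 6 rose and 1 fell (median 0.35), and 4 rose without replicate 3, counts near the share of all genes. Oasl1 rose 21.9-fold, from between -1.05 and -0.38 to 3.1, 3.03, 5.08 and 3.65, and Ddx58, the RNA sensor RIG-I, 2.31-fold.

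Genes of dendritic cells and class II fell. Of 10 neutrophil markers 4 rose and 0 fell, and 3 rose without replicate 3, when 24.1% of all genes did. S100a9, the alarmin subunit of neutrophils, read -3.23, -2.41, -3.73 and -2.97 in saline and -2.34, -1.05, 0.82 and -0.60 at 24 h, a 4.90-fold rise (2.29 ± 0.65, and 1.75 without replicate 3). The mean level of the neutrophil list ranged from -4.06 to -3.39 over the saline arrays and from -3.34 to -1.67 over the treated ones. The granule genes Mpo, Elane, Camp and Ltf and the receptors Cxcr2 and Csf3r were not called, with differences between -0.71 (Ltf) and 0.44 (Cxcr2), and Lcn2, counted here, is also made by tubule cells. Of 9 dendritic cell and class II genes 8 fell and 0 rose (7 without replicate 3). H2-Aa, a class II chain, read -0.33, -0.42, -0.73 and -0.49 in saline and -1.0, -0.97, -2.71 and -2.55 at 24 h, 2.49-fold lower. H2-Eb1, H2-Ab1 and Cd74 fell 2.12-fold, 1.85-fold and 1.90-fold, in each case most on replicates 3 and 4. Of 15 macrophage markers 6 fell and 1 rose (4 and 1 without replicate 3, when 20.5% of all genes fell). Csf1r, the macrophage growth factor receptor, fell 2.03-fold, and Cd14, a lipopolysaccharide co-receptor, rose 4.50-fold, with 2.21 and 1.38 on replicates 3 and 4. The mean level of the macrophage list was -1.26 to -1.16 in saline and -2.53 to -1.40 at 24 h. The part of leukocyte numbers in these results was not tested.

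Oxidative stress genes rose. Of 29 Nrf2 targets 19 rose and 2 fell (median 1.13). Cbr3, a carbonyl reductase, read -0.43, -0.39, -0.27 and -0.18 in saline and 3.16, 3.35, 3.77 and 4.61 at 24 h, a 16.5-fold rise (4.04 ± 0.23, adjusted p = 2.70e-13). Hmox1, haem oxygenase, rose 5.54-fold, with 3.17, 3.56, 4.75 and 4.43 against 1.32 to 1.65. The quinone reductase Nqo1 and the thioredoxin reductase Txnrd1 rose 4.15-fold and 3.77-fold, and G6pdx, which supplies their NADPH, 3.21-fold. Slc7a11, the cystine carrier, was not called: it read -10.03 and -10.22 on replicates 1 and 2 against -10.03 to -9.09 in saline, and it reached -3.23 on replicate 3 and -7.50 on replicate 4. Of 16 metal handling genes 3 rose and 4 fell (median 0.01), shares near those of all genes, and 3 rose and 6 fell without replicate 3. The metallothioneins Mt1 and Mt2, which bind metals, rose 2.96-fold and 5.07-fold, and again replicates 3 and 4 stood highest, at 6.47 and 6.12 for Mt2 against 4.22 and 4.10. The copper carrier Slc31a1, which also carries cisplatin, fell 1.81-fold.

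Targets of ATF4, the transcription factor of amino acid stress, rose in part, while chaperones of the endoplasmic reticulum (ER) fell. Of 23 ATF4 targets 11 rose and 1 fell (median 0.84, and 0.544 with the normexp correction). Slc3a2, an amino acid carrier subunit, rose 2.79-fold and Ddit3, the transcription factor CHOP, 3.56-fold. Asns, asparagine synthetase, read 0.39, -0.18, -0.34 and 0.06 in saline and 0.96, 1.23, 1.80 and 1.89 at 24 h, 2.80-fold higher. Of 20 genes of ER chaperones and their regulators, in contrast, 15 fell and 1 rose (median -0.56). Atf6, the sensor that switches on chaperones, fell 3.03-fold (-1.60 ± 0.19), from between -1.64 and -1.29 to between -3.30 and -2.77. Pdia6, which forms disulphide bonds, fell 1.69-fold and Hsp90b1, the chaperone Grp94, 1.76-fold. On Pdia6 and Hsp90b1 replicate 3 was the treated array nearest to saline. Hspa5, the chaperone BiP, was at 4.51, 4.64, 5.82 and 4.94 against 5.29 to 5.74, with replicate 3 above every saline array. It fell 1.38-fold (-0.46, adjusted p = 0.0352), by -0.74 without replicate 3 (adjusted p = 9.55e-05) and -0.31 without replicate 1. The call of Hspa5 was lost with the normexp correction, the slide as a block, the compared groups alone and without 5 single arrays. Of 13 heat shock genes 2 rose and 5 fell. The small heat shock protein Hspb1 and its co-chaperone Bag3 were those that rose.

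The ER stress response element, CCAAT and CCACG with 9 bases between them on either strand, was found in the same window of 8 of the 17 ER genes with a promoter entry (47.1%) against 0.13% of all promoters. Of these 8 genes 6 fell and 0 rose at 24 h. The element is a known feature of these genes, so its presence describes the list. Stretches of 4 promoters are shown with both parts of the element in capitals, since they mark the genes of the response that did not rise, Hspa5 and Calr being picked for the element and not by the rule for named genes (RefSeq, GRCm38.p6, along the gene's strand, at chr2:34772005-34772063 plus, chr10:86705513-86705571 minus, chr8:84847055-84847113 minus and chr12:17266471-17266529 plus). Calr fell 1.58-fold (-0.66 ± 0.13).
Hspa5: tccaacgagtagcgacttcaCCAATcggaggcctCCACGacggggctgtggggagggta
Hsp90b1: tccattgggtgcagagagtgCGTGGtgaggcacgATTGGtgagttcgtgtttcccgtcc
Calr: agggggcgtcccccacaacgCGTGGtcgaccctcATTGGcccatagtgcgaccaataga
Pdia6: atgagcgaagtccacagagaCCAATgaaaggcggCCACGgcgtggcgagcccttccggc

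**Figure D2:**
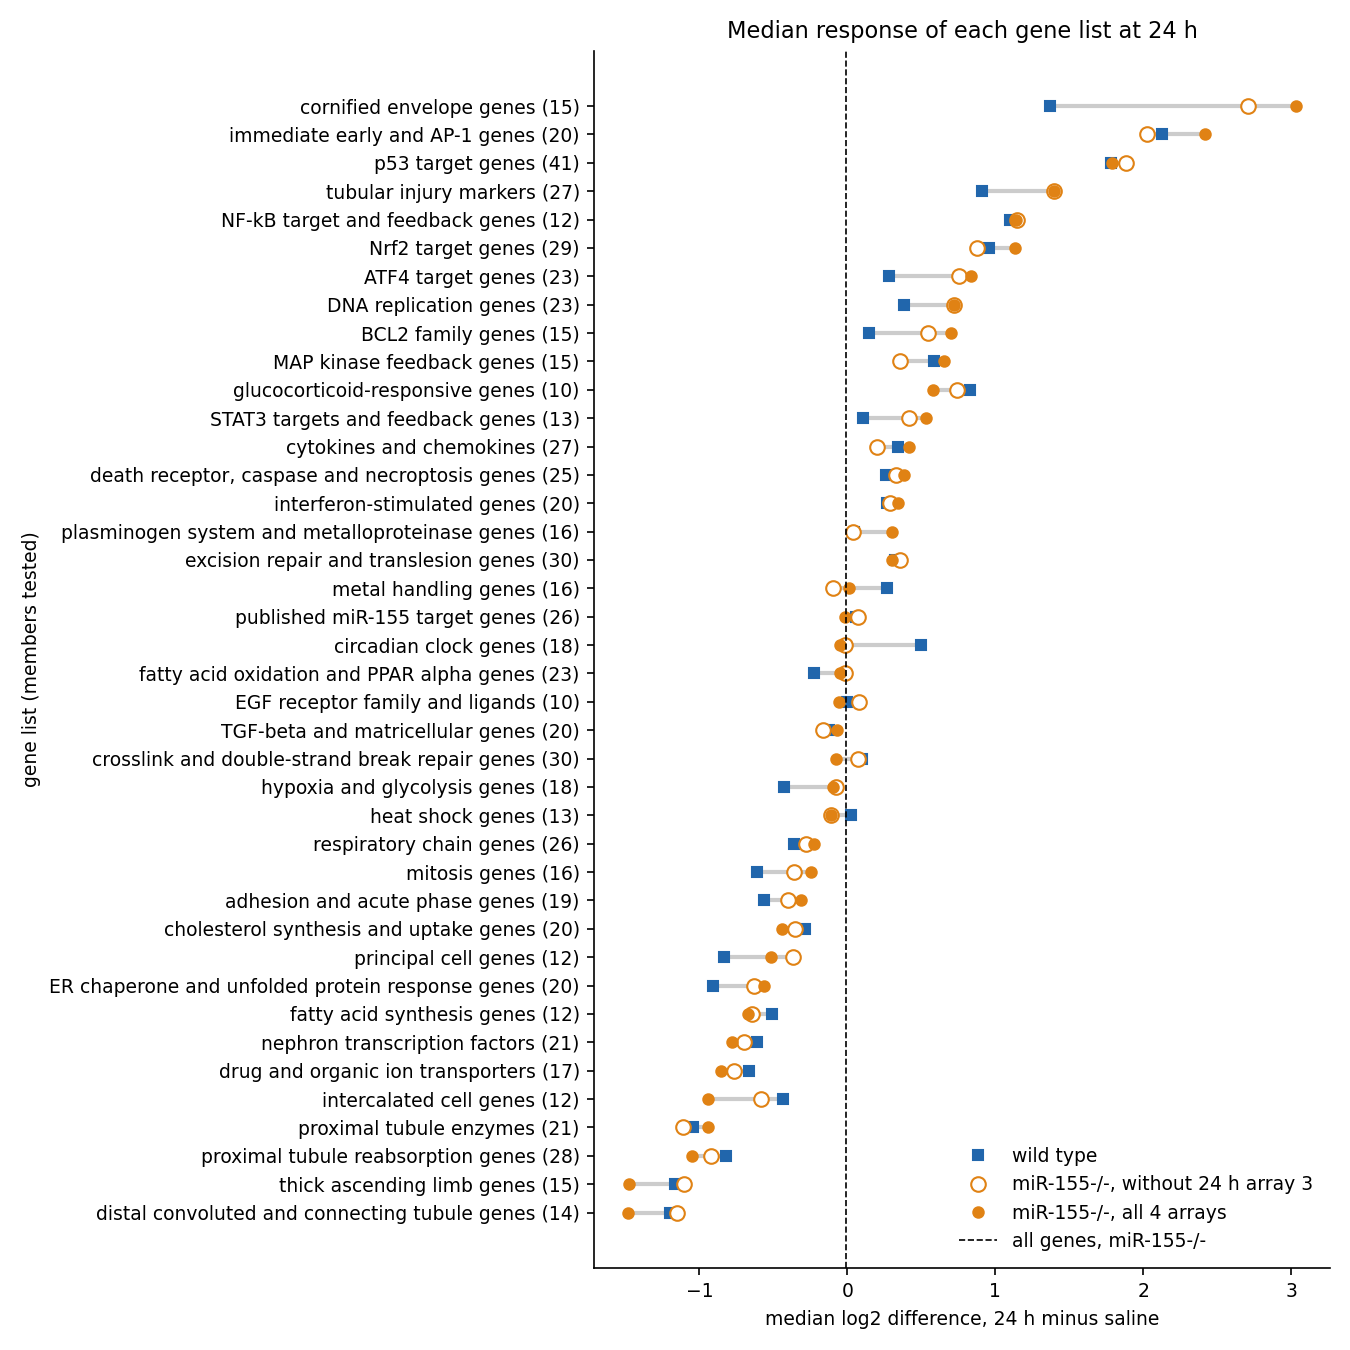
Median log2 difference between 24 h and saline (horizontal axis) of 40 gene groups (rows), for wild type kidney (squares), miR-155-/- kidney with 4 treated arrays (filled points) and without replicate 3 (open points). The dashed line is the median of all genes tested in miR-155-/- kidney, -0.01; by the filled points cornified envelope, AP-1 and p53 target genes lie furthest to the right and the distal convoluted tubule and thick ascending limb furthest to the left.

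Genes of the proximal tubule fell. In the proximal tubule 19 of 28 reabsorption genes fell and 1 rose (median -1.05, 16 and 1 without replicate 3), as did 16 of 21 enzymes with 0 rising (median -0.95). Lrp2, the endocytic receptor megalin, read 6.18, 6.22 and 6.10 on the 3 saline arrays with a value and 4.17, 4.12, 5.02 and 3.88 at 24 h, a 3.65-fold fall (-1.87 ± 0.24). Its partner Cubn fell 3.46-fold, the phosphate carrier Slc34a1 2.52-fold and the dicarboxylate carrier Slc13a3 3.19-fold. For Lrp2, Cubn, Slc34a1 and Slc13a3 replicate 3 was the treated array nearest to saline. Gatm, which makes the precursor of creatine, fell 7.55-fold, with 1.30, 1.02, 0.18 and -1.31 against 2.79 to 3.40. The gluconeogenic enzyme Pck1 fell 3.71-fold and Ggt1, the brush border glutathione hydrolase, 2.16-fold. The reabsorption gene that rose, named for that reason, was the phosphate carrier Slc20a2 (0.75).

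Among the carriers that move cisplatin and other drugs across tubule cells, solute carriers fell and ATP-driven pumps rose. Of 17 measured 4 rose and 11 fell (median -0.86), and each of the 11 was a solute carrier. Slc22a2, the basolateral carrier OCT2 that imports cisplatin, read 4.35, 4.29, 4.11 and 4.42 in saline and 3.33, 3.24, 3.46 and 3.04 at 24 h, a 2.03-fold fall (-1.02 ± 0.16). Slc47a1, the apical exporter MATE1, fell 1.81-fold, and the organic anion carriers Slc22a6 and Slc22a8 1.63-fold and 3.70-fold. The 4 that rose were the ATP-driven pumps Abcb1b (3.66-fold), Abcc2 (2.11-fold), Abcc3 (2.08-fold) and Abcb1a (1.78-fold), the last not called with the normexp correction. Abcb1b showed -0.12, -0.16, -1.94 and -0.12, so that replicate 3 stood nearer to the saline range of -2.68 to -2.13.

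In the thick ascending limb 10 of 15 genes fell and 1 rose (median -1.48), and in the distal convoluted and connecting tubule 13 of 14 fell, all but Trpv5 at -0.23 ± 0.54 (median -1.48, and 12 with -1.16 without replicate 3). Umod, the most abundant protein of normal urine, read 7.56, 7.53, 7.12 and 7.01 in saline and 5.81, 5.62, 5.50 and 5.41 at 24 h, 3.28-fold lower (-1.71 ± 0.30). Slc12a3, the thiazide-sensitive carrier, fell 5.72-fold, to -0.24, -0.10, 0.96 and 0.11 from between 2.51 and 2.92. The magnesium channel Trpm6 fell 5.73-fold, Kl, the co-receptor Klotho, 3.98-fold and the kinase Wnk1 2.88-fold. Casr, the calcium sensor, fell 2.79-fold, with 0.29 and 0.03 in replicates 1 and 2 against -2.43 and -1.10 in replicates 3 and 4 (-1.48, and -0.94 without replicate 3). The gene of the thick ascending limb list that rose was Ptgs2, cyclooxygenase 2, which other cells make too (2.75), and which was well above background on 1 saline and 3 treated arrays. It had a difference of 1.78 without 24 h replicate 3, 3.46 without 24 h replicate 1 and 3.47 without saline replicate 3. The call of Ptgs2 was lost without 24 h replicate 3 (adjusted p = 0.0951), without saline replicate 4, with the compared groups alone and with the normexp correction.

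In the collecting duct part of the calls rested on replicate 3, without which the shares were near the 20.5% of all genes that fell. Of 12 principal cell genes 5 fell and 0 rose (3 without replicate 3), and of 12 intercalated cell genes 6 fell and 0 rose (3 without replicate 3, where the median moved from -0.94 to -0.58). Aqp3, a basolateral water channel, fell 1.82-fold and Scnn1a, the sodium channel subunit, 1.80-fold. Slc4a1, the anion exchanger of acid-secreting cells, read 0.94, 1.04, 1.02 and 0.32 in saline and -0.95, -0.72, -3.83 and -2.16 at 24 h, a 6.70-fold fall (-2.75 ± 0.58, and -2.11 without replicate 3). Atp6v1b1, a proton pump subunit, fell 3.38-fold. Rhcg, Atp6v1c2 and Slc4a9 lost their calls without replicate 3 (adjusted p = 0.116, 0.164 and 0.0912), as did the principal cell genes Hsd11b2 and Scnn1b (0.175 and 0.0797). Rhcg, an ammonia channel, read 2.55, 2.64, 0.36 and 2.10 at 24 h against 3.07 to 3.46. The differences of Rhcg, Atp6v1c2 and Hsd11b2 were -1.32, -1.10 and -1.68 with replicate 3 and -0.80, -0.57 and -0.99 without it. Atp6v1c2 was lost too with the compared groups alone, Slc4a9 without saline replicate 1, 2 or 4, and Hsd11b2 without saline replicate 2. Scnn1b was lost too without saline replicate 4, with the slide as a block and with array weights. Among nephron transcription factors 13 of 21 fell (10 without replicate 3), with Esrrg, a regulator of mitochondrial genes, 6.40-fold lower.

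**Figure D3:**
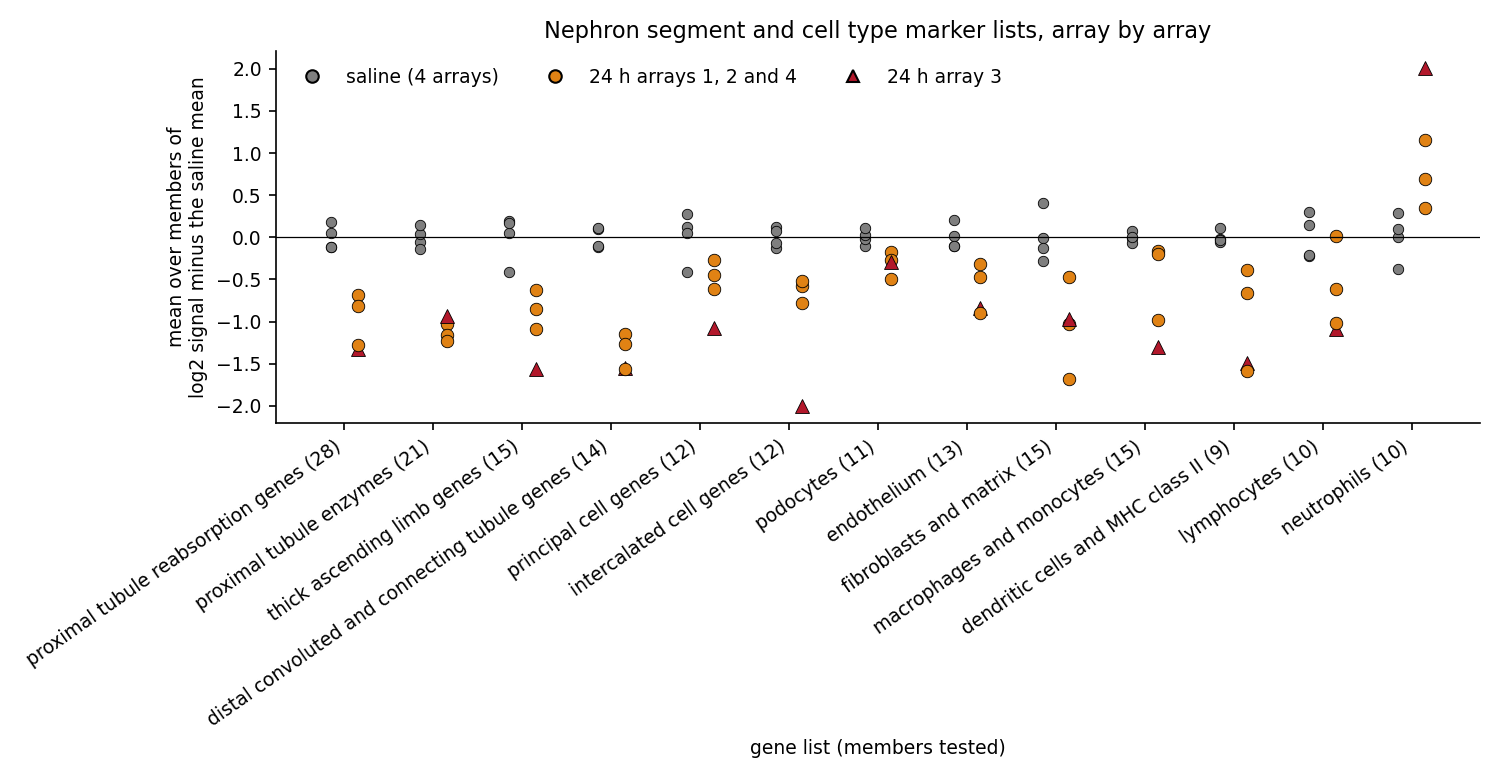
Mean deviation of 13 nephron and cell type lists (horizontal axis, with the number of members tested) from their saline mean (vertical axis, log2), 1 point per miR-155-/- array, saline in grey, 24 h in orange and 24 h replicate 3 (array 3) as a triangle. Intercalated cell genes are at -2.0 on replicate 3 and between -0.78 and -0.51 on the other treated arrays, whereas proximal tubule enzymes are between -1.24 and -0.93 on all 4.

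Metabolic genes changed by pathway. Of 12 fatty acid synthesis genes 11 fell and 0 rose (median -0.68, 8 without replicate 3), led by Acaca, the carboxylase that starts synthesis, 4.39-fold lower (-2.14 ± 0.22). Of 20 cholesterol genes 10 fell and 2 rose, with Mvd, Idi1 and Cyp51 2.33-fold, 2.59-fold and 3.65-fold lower. Of 26 respiratory chain genes 10 fell and 0 rose, each by little (median -0.23), such as Ndufs1, a core subunit of complex I, 1.70-fold lower. Of 23 genes of fatty acid oxidation 4 rose and 8 fell. Plin2, the coat protein of lipid droplets, read 2.47, 2.54, 2.36 and 2.72 in saline and 5.54, 5.24, 6.17 and 6.59 at 24 h, a 10.3-fold rise (3.36 ± 0.38). Cidec, another lipid droplet protein, rose 15.2-fold, from between -6.00 and -4.52 to -1.72, -2.17, -1.64 and -0.14. Cidec was counted among 6 adipocyte markers, of which it alone was called, with 1 rising and 5 not called. The mean of that adipocyte list ranged from -1.03 to 1.56 around its saline mean over the saline arrays. Fabp1, a fatty acid carrier also counted in the liver list below, fell 10.5-fold and Cpt1a, the gate of oxidation in mitochondria, 1.71-fold. Pdk4, which spares glucose, rose 5.83-fold. Among 18 hypoxia and glycolysis genes 3 rose and 4 fell, shares near those of all genes. Adm, adrenomedullin, rose 4.25-fold, and Vegfa, the endothelial growth factor, fell 2.02-fold.

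Clock genes rose and fell in equal number, 6 and 6 of 18 (median -0.05). Without replicate 3 the counts were 5 and 4, shares near those of all genes. Per1 rose 2.43-fold, with 3.59, 3.13, 4.12 and 4.19 against 2.17 to 2.78, and Nfil3, a repressor of clock outputs, 2.91-fold. Dbp, an output activator, is given after its values were seen, because its arrays split: 3.76 and 3.33 in replicates 1 and 2, 0.55 and 1.57 in replicates 3 and 4, against 3.76 to 4.10 in saline (-1.64 ± 0.47, and -1.05 without replicate 3). Dbp was not called with the compared groups alone, nor with array weights. The hours of day at which kidneys were taken are not given in the sources used here.

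Markers of stroma and vessels fell in part. Of 15 fibroblast and matrix genes 9 fell and 0 rose, and the mean level of the list was -0.58 to 0.11 in saline and -1.98 to -0.77 at 24 h. Pdgfra, a growth factor receptor of fibroblasts, fell 3.50-fold and the collagen Col6a3 2.76-fold. Of 13 endothelial genes 7 fell and 1 rose (5 and 1 without replicate 3). Ehd3, of glomerular endothelium, fell 2.79-fold, with 0.09, 0.10, -1.41 and -1.04 against 0.53 to 1.17. Emcn fell 2.57-fold and Nos3, the endothelial nitric oxide synthase, rose 2.31-fold. Of 11 podocyte genes 4 fell and 0 rose, and the slit protein Nphs1 was not called (0.24 ± 0.18). Of 10 lymphocyte markers 1 fell, Cd3d, which was lost without replicate 3 or 4 and with the normexp correction. Of 8 red cell genes 2 fell, 1 of them Slc4a1, which intercalated cells share. Of 8 urothelial genes 2 rose, Krt20 and Krt5, and 3 fell (1 without replicate 3), and 0 of 3 adrenal cortex genes were called.

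Most of the largest falls were in genes of proteins that the liver secretes. All 10 genes of the liver list fell (9 without replicate 3). Ahsg, the plasma protein fetuin-A, read -1.11, -1.55, -2.34 and 0.18 in saline and -6.90, -7.17, -7.21 and -9.09 at 24 h, 83.8-fold lower by the fit (-6.39 ± 0.84). As Ahsg was well above background on 2 of the treated arrays, that fold rests in part on background. Serpina3k fell from well above background on all 4 saline arrays to none of the treated ones, at least 35.4-fold, and Mup3, a major urinary protein, at least 68.5-fold. Alb, albumin, fell 5.28-fold, with -2.69, -2.96, -2.06 and -2.92 against -0.54, -0.74, -0.74 and 0.98. For Ahsg, Serpina3k, Mup3 and Alb saline replicate 4 was the highest saline array and saline replicate 3 the lowest or equal lowest. The Mup genes are near-identical copies, and 7 of them were among the 12 named genes with the largest fall. Of the smaller falls, Apoa1, well above background on 3 treated arrays, was lost without replicate 3 (adjusted p = 0.0854), without saline replicate 4, with array weights, with normexp and in a fit of the compared groups alone. Ttr was lost with the compared groups alone and without saline replicate 1, 2 or 4 or 24 h replicate 1 or 4, and Serpina1a without saline replicate 2 and with the normexp correction. The mean level of the liver list was -0.47 to 1.04 in saline and -3.22 to -2.77 at 24 h. Erc2, a synaptic scaffold protein, and Sdk1, an adhesion protein, fell 32.2-fold (-5.01, and -5.72 without replicate 3) and at least 14.6-fold and belong to no liver list.

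Tac1, which encodes the neuropeptide substance P, was among the largest rises. It read -9.30, -8.20, -6.62 and -9.79 in saline and -2.85, -3.31, 0.75 and -1.57 at 24 h, 106-fold higher by the fit (6.73 ± 0.75, adjusted p = 5.49e-08). As Tac1 was well above background on 1 of the saline arrays, that fold rests in part on background. Without 24 h replicate 3 the difference of Tac1 was 5.90, and without saline replicate 3 it was 7.35. Inka2, an inhibitor of the kinase PAK4, had the smallest adjusted p of all genes (1.02e-20), rising 41.2-fold from between -6.94 and -6.33 to between -1.37 and -1.13. Serpina7, the thyroxine carrier of plasma, rose at least 30.0-fold, with replicate 3 the lowest treated array (-4.05 against -2.64 to -2.25). In all 36 named genes were well above background on all 4 treated and 0 of 4 saline arrays, and the reverse held for 73. Only genes whose "at least" fold exceeded 1 were counted. All 36 were called higher, and 67 of the 73 were called lower.

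Of 26 published miR-155 target genes 9 rose and 4 fell (median -0.02, beside -0.01 for all genes). Trp53inp1, which amplifies p53 activity, rose 11.8-fold (3.56 ± 0.21), and Msh6, of mismatch repair, 2.14-fold. Csf1r fell 2.03-fold. In wild type kidney the differences of the same 3 genes were 3.37, 0.98 and -0.88.

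Replicate 3 at 24 h differed from the other 3 treated arrays in both directions. It lay over 2-fold above their mean for 3114 genes and over 2-fold below it for 1706, against 239 to 779 and 737 to 1270 for the other arrays. The genes named are those furthest from that mean, as a description. Grp, gastrin-releasing peptide, read 0.74 on replicate 3 and -7.71, -7.88 and -4.07 on the others, and Krt12, Lce3c and Calcb stood out the same way. Below the mean were Igf1, the growth factor, with -8.08 against -2.80, -2.24 and -4.36, Cyp24a1, the vitamin D hydroxylase, with -2.42 against 2.94, 2.64 and 1.54, and the urea carriers Slc14a1 (-7.81 against -4.17, -2.44 and -4.70) and Slc14a2 (-1.78 against 1.80, 2.89 and 1.92). The calls of Grp (adjusted p = 0.0138), Lce3c, Calcb and Igf1 were lost without replicate 3, with the compared groups alone and with array weights, and those of Grp, Lce3c and Calcb with the normexp correction. Without replicate 3 the differences were 2.34 for Grp, 1.58 for Lce3c and -1.26 for Igf1, against 4.16, 3.11 and -2.50 with it. Grp was well above background on 1 saline and 3 treated arrays, Lce3c on 2 saline arrays and Igf1 on 3 treated ones, and Calcb on no saline and 3 treated arrays (at least 2.54-fold higher). Calcb was lost too without saline replicate 2 or 3 and without 24 h replicate 4. In the lists, replicate 3 stood at 3.86 above the saline mean for AP-1 genes (1.77, 2.05 and 2.78 on replicates 1, 2 and 4) and at 2.01 for neutrophil markers (0.34, 0.69 and 1.16). For p53 targets it stood at 2.13, level with the lowest of the others (2.13, 2.15 and 2.43). Replicate 4 lay between: for injury markers the 4 arrays were at 1.14, 1.20, 2.27 and 2.18. On the first component of variation over all 32 arrays (40.4% of the variance) the treated arrays were at 18.4, 20.1, 87.8 and 70.6, and the saline arrays at -93.1 to -80.3.

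**Figure D4:**
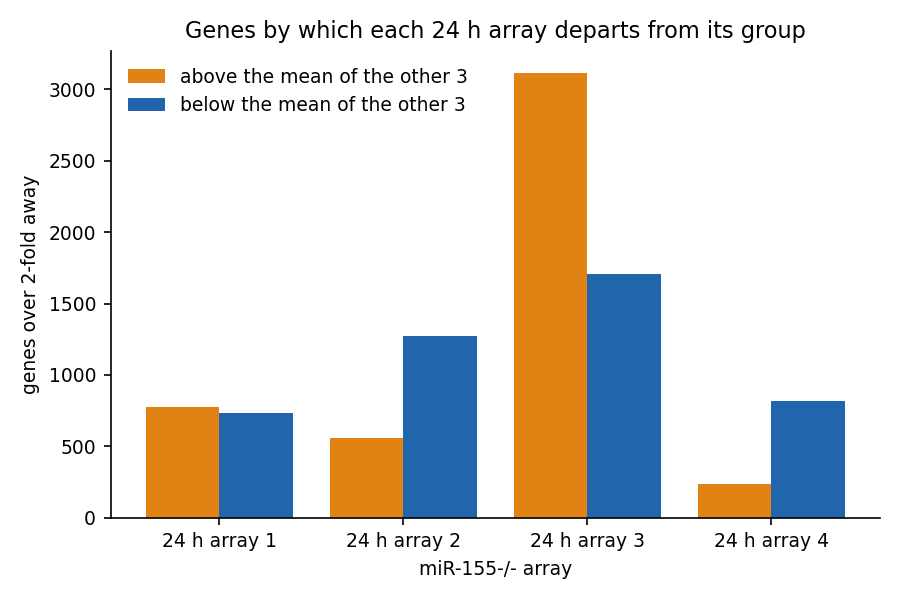
Number of genes (vertical axis) for which each miR-155-/- array at 24 h (horizontal axis, arrays 1 to 4) lay over 2-fold above or over 2-fold below the mean of the other 3 treated arrays. Replicate 3 has 3114 above and 1706 below, and no other array passes 1270 in either direction.

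The response was set beside that of wild type kidney at the same time, which has its own saline group. In wild type 9180 genes were called (38.7%), 21.0% higher and 17.6% lower. Which genotype had more calls depended on the fit. With the compared groups alone 9059 genes were called in miR-155-/- and 11603 in wild type. With array weights the counts were 11241 and 13496. Of the genes that rose in miR-155-/- kidney 4379 also rose in wild type, 69.2% of the first list and 87.7% of the second. Of those that fell 3622 also fell in wild type, 67.9% and 86.6%, and 1 gene was called lower in miR-155-/- and higher in wild type. The difference between the 2 responses was then tested for each gene as an interaction. By limma 0 of 23743 genes were called (smallest adjusted p = 0.280), with 785 at an unadjusted p under 0.05 (3.31%), and 0 without replicate 3 (smallest adjusted p = 0.568, 635 unadjusted). With quantile normalization 2 genes were called, and without miR-155-/- replicate 1 at 24 h there was 1.

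Counts in several lists were unequal between the genotypes, but no member passed the test of the difference. Injury markers rose in 20 of 27 cases in miR-155-/- and 14 of 27 in wild type, neutrophil markers in 4 and 0 of 10, and class II genes fell in 8 and 1 of 9. The differences of S100a9 were 2.29 in miR-155-/- and -1.23 in wild type, an interaction of 3.52 ± 0.91 with an adjusted p of 0.940. Its mean over the saline arrays was -0.14 in wild type, where the 4 treated arrays read -0.41, -1.49, -1.92 and -1.67. H2-Aa differed by -1.13 ± 0.50 between the responses and Lcn2 by 1.93 ± 0.96, both with an adjusted p of 0.940. Per2, a clock repressor, had one of the smallest interaction p-values, at -0.40 in miR-155-/- and 1.15 in wild type (-1.55 ± 0.33, adjusted p = 0.422). Wee1, the kinase that holds cells before mitosis and a clock output, was at 0.65 and 1.82 (-1.17 ± 0.26, adjusted p = 0.497). The other extreme was Platr26, a noncoding RNA, at 1.54 and -0.76 (2.30 ± 0.43, adjusted p = 0.280). Per2, Wee1 and Platr26 were chosen after their values were seen, and the interaction was called for none of them.

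**Figure D5:**
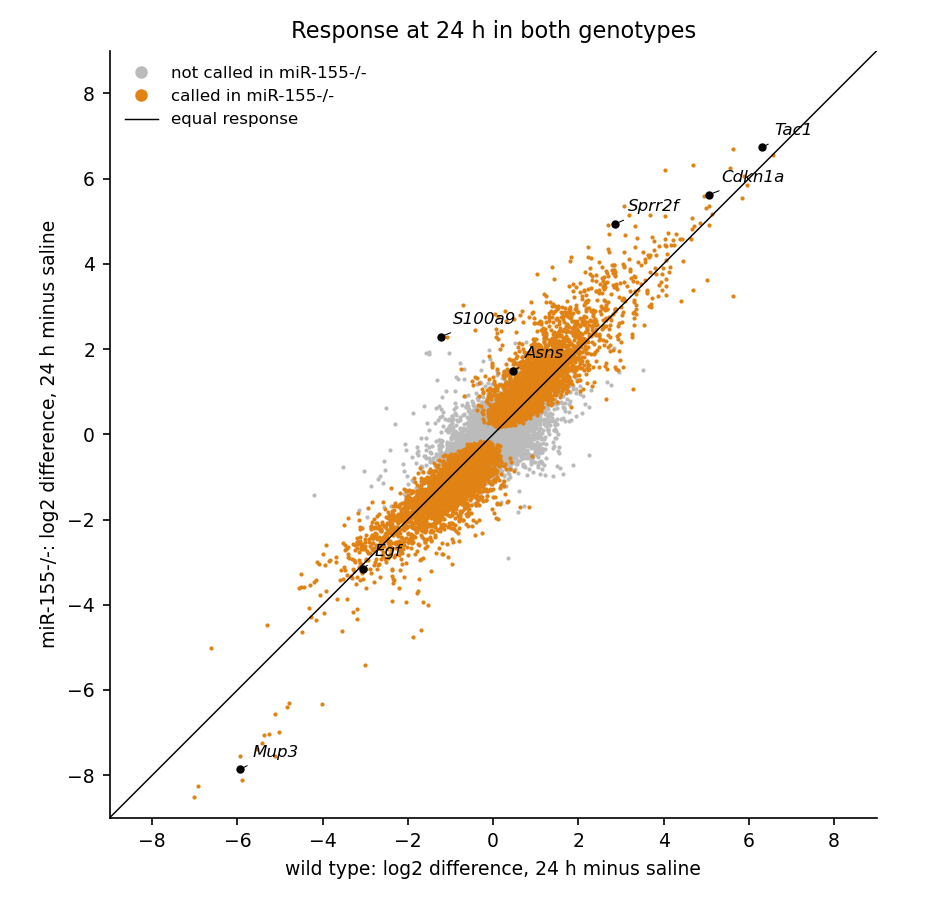
Log2 difference between 24 h and saline in miR-155-/- kidney (vertical axis) against that in wild type kidney (horizontal axis), 1 point per gene tested, with genes called in miR-155-/- in orange and the line of equal response, each genotype with its own saline group of 4 arrays. Cdkn1a and Tac1 lie high in both (5.62 and 5.07, 6.73 and 6.31), Egf low in both (-3.15 and -3.07), and S100a9 stands on opposite sides of 0 (2.29 and -1.23).

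At 48 h in the same genotype 955 genes were called against 24 h (4.02%), 479 higher (2.02%) and 476 lower (2.0%). These values share the 24 h arrays with the comparison above, so both are given side by side and not correlated. The count depended on the third replicates: it was 1659 (6.99%) without that at 24 h, 5138 without that at 48 h and 4447 (18.7%) without both, while 5 genes were called with the compared groups alone. Leaving out 24 h replicate 4 or 48 h replicate 1, 2 or 4 gave 464, 497, 610 and 357. Mthfd1l, a mitochondrial folate enzyme, had the smallest adjusted p (3.89e-09). It was at -4.19, -4.11, -3.96 and -4.25 at 24 h and at -2.02, -2.21, -1.78 and -1.96 at 48 h, and was not called at 24 h against saline (-0.32 ± 0.16). Alox5, the lipoxygenase that starts leukotriene synthesis, had risen 4.73-fold by 24 h and rose a further 3.58-fold by 48 h. Tbc1d22a, Ccdc149 and Pbx3 had fallen by 24 h (-2.24, -2.10 and -1.58) and were higher again at 48 h than at 24 h (1.09, 1.34 and 1.12). With the compared groups alone Mthfd1l kept its call and Alox5, Tbc1d22a, Ccdc149 and Pbx3 lost theirs. Of 41 p53 targets 1 was higher at 48 h than at 24 h, and of 27 injury markers 5 were (1 and 8 without 24 h replicate 3, when 3 p53 targets were lower and 3.08% of all genes were higher and 3.9% lower).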

How the data were processed

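RNA of homogenised whole kidney was hybridised to 32 1-colour Agilent mouse arrays, 4 independent animals in each of 8 groups of genotype and time, and the deposited files hold 1 array each. Per the file headers, the authors extracted the signals with Feature Extraction 10.7.3.1 (protocol GE1_107_Sep09). The deposited processed signal is an intensity on a linear scale, already background-corrected there, and the deposited value table was matched to those signals scaled to a common 75th percentile of 1000 per array on the linear scale, so its log2 was taken here.

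From the deposited intensity the log2 signal minus the array's 75th percentile was computed here. Control spots and outlier spots (59 to 976 per array) were left out, no spot was saturated, and repeated spots of a probe were averaged. Of 39429 probes 27234 had a symbol through their accession (69.1%). The brightest probe stood for a gene. A gene was tested if some group had its 4 arrays each well above background and every group kept 3 values or more. A gene could pass through any of the 8 groups, saline or treated, of either genotype. This left 23743 genes, 16454 of them named. The 75th percentile ranged from 1531 to 2647 intensity units, and the number of arrays limits the precision. limma 3.58.1 in R 4.3.3 (lmFit, contrasts.fit, eBayes with trend) was fitted to 8 group means over all 32 arrays, with 970 missing values, 24 residual degrees of freedom and a median prior of 3.8. P-values were 2-sided and adjusted by Benjamini-Hochberg per comparison; calls have an adjusted p under 0.05. Where a probe was not well above background on any array of a group, a fold is given as "at least", against the higher of the lowest signal well above background and the probe's own value on each array. On simulated data for the 24 h comparison (23743 genes), 76% of 100 changes of 1 log2 unit and 94% of 100 changes of 2 were recovered, all with the right sign, and 5.03% of calls were false. The simulation changed only these genes and drew independent noise for each gene. In the real comparison 49.1% of genes were called and replicate 3 stood apart over many genes at once, so these rates need not carry over.

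The genes named are 18 index genes, the 12 largest rises and falls without overlap, in each list the 6 calls with the lowest adjusted p (fewer where a list has fewer), uncalled members whose value is given, the genes leading the 48 h comparison, those furthest from their group on 24 h replicate 3 and those with the largest bounds between groups. Sesn1, Errfi1, Sox9, Sprr1a, Sprr2e, Sprr2h, Ivl, Timp1, Hspa5, Calr, Slc20a2, Slc47a1, Slc22a8, Abcb1b, Abcc3, Abcb1a, Ptgs2, Dbp, Apoa1, Ttr, Serpina1a, Per2, Wee1 and Platr26 fall outside that rule and were chosen after their values were seen. The comparison, the members and the lists were chosen with earlier results of these data known.

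The alternatives were a normexp background correction, quantile normalization, the authors' value table, no filter on dim probes, the mean of a gene's probes, the compared groups alone, the slide, scan day or replicate number as a block, array weights, values within a slide, and each array left out in turn. Normexp was run on the median spot signal (offset 50), in place of the mean signal. The scan day and the joint removal of replicate 3 at 24 h and 48 h were added after seeing the data.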

Additional observations from a re-analysis of the deposited data

Results flagged for a closer look

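Among 214 genes named above, 422 groups of 4 miR-155-/- arrays were looked at for 1 array far from the other 3 (a gap to the nearest array, as a share of the range of the group, above Dixon's critical value for 4 samples), and 26 groups (6.16%) held one. Chance gives about 1 in 20. In 12 of the 14 such groups at 24 h the array was replicate 3. Some of these genes were named because they lay far from the group on that array or after their values were seen, so this count is a description and cannot be read against chance.

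At 24 h replicate 3 was far above its group for Mki67 (-2.72), Rrm2b (-1.84), Il6 (-1.95), Cxcr2 (-5.50), Pdia6 (4.46), Hsp90b1 (4.20) and Serpina1a (5.05). It was far below for Havcr1 (-0.82), Nrg1 (-0.77), Abcb1b (-1.94), Atp6v1c2 (-1.69) and Wee1 (-1.08). Thus the injury marker Havcr1 and the drug pump Abcb1b, which rose, were nearest to saline on the array where Il6 stood highest. Replicate 4 was far above its group for Stat3 (2.92) and far below for Ahsg (-9.09).

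Of the saline arrays, replicate 3 was far above its group for Egr1 (-1.08), Krt12 (-6.66), Ddit3 (-1.13) and Grp (-6.00) and far below for Rrm2 (-1.59) and Cd74 (1.98). Replicate 4 was far above for Alb (0.98) and far below for Slc4a1 (0.32) and Slc14a2 (-1.54). Replicate 1 was far below for Gatm (2.79) and Csf3r (5.08), and replicate 2 far above for Xpc (1.82).

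Of 106 such groups of gene list means (log2, relative to the saline mean) 7 held 1 array far from the rest. At 24 h replicate 4 was highest for p53 targets (2.43) and for the EGF receptor family (0.49), and replicate 3 for genes of TGF-beta and matricellular proteins (0.53). In saline replicate 3 was highest for AP-1 genes (0.37) and TGF-beta genes (0.24) and lowest for fatty acid oxidation (-0.38), and replicate 1 was highest for ER chaperones (0.17).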

How the results depend on the processing

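The counts of genes called at 24 h in miR-155-/- kidney, 6325 higher and 5338 lower, moved by over 1.5 times with the normexp correction alone (4183 and 2946), and over the other alternatives the total lay between 9059 with the compared groups alone and 13740 with the slide as a block. In wild type the counts were 2931 and 2292 with normexp, and 7714 genes were higher with array weights. The interaction had 1 gene higher and 1 lower with quantile normalization, and 0 to 1 higher when single arrays were left out. At 48 h against 24 h the counts were 943 higher and 1362 lower with normexp, 1940 and 2547 with array weights, 1882 and 2565 without replicate 3 of both groups, and 5 and 0 by limma on the compared groups alone (1488 genes at an unadjusted p under 0.05). Leaving out single arrays gave 195 to 2241 higher and 162 to 2897 lower there.

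Same-numbered arrays of the 24 h and saline groups did not deviate together in every pair (correlations of -0.07, 0.49, 0.27 and -0.19). For the 48 h and 24 h groups the correlations were 0.55, 0.31, 0.59 and -0.08. The main fit did not pair arrays by number, and whether the numbers mark something shared was not tested. With the replicate number as a block 11689, 9170, 0 and 922 genes were called at 24 h in miR-155-/-, at 24 h in wild type, in the interaction and at 48 h.

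Of 294 genes named for the 24 h comparison 45 were no longer past the threshold with normexp, 19 without 24 h replicate 3, 14 without 24 h replicate 4, 11 each with array weights and the compared groups alone, and 1 with the replicate block. Within slide 4 the difference of 149 of 294 and within slide 6 that of 86 of 293 moved by more than the spread between replicates. Of 20 genes named at 48 h 19 were lost with the compared groups alone. The sign turned for Clu, which was not called: -0.042 with quantile normalization, -0.18 with array weights, and between -0.069 and 0.216 without single arrays. It also turned for Dnajb11 with the mean of its probes (0.33), for Nrg1 (-1.14), Plce1 (0.027), Scd1 (0.17) and Zbtb16 (-0.049) within slide 4, and for Lrrc4 at 48 h against 24 h with normexp (0.14). The cause was not tested.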
